A study of Mus musculus with 5 samples.

Results

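The stretch described here is 450 kb of mouse chromosome 17 that runs from just before Cdc42ep3 to just beyond Cyp1b1. Its members are the probes at positions 77850000 to 78299999 of the array files, 2488 of the 387986 probes on chromosome 17. They were read as means of consecutive windows of 5 kb, and 86 of the 15383 windows of the array with at least 8 probes lie in the stretch. Another 4 windows of the stretch, holding 12 probes together, had fewer than 8 probes and were left out. The stretch was chosen by the measured difference between the lines. Windows near its ends, at positions 77880000 and 78250000, were higher in the line MEFB than in the line MEFF. Every value of MEFB against MEFF is therefore given as a description with no test.

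Both lines are spontaneously immortalised fibroblasts from mouse embryos of 12.5 days after conception, of strain FVBN. MEFF has the genotype Thp/+ and MEFB, called MEFB1 in the labels' protocol, has the genotype +/Thp. The labels describe these as reciprocal deletions, so both lines lack 1 parental copy of the deleted segment and keep the other. Thp removes at least 4.6 Mb between T and Sod2, including the imprinted Igf2r cluster of 400 kb, in another part of chromosome 17 than the stretch. MEFF was hybridised on 4 arrays, 2 with total RNA and 2 with polyA RNA, and MEFB on 1 array with polyA RNA. Each array read double-stranded cDNA in the Cy3 channel against sonicated genomic DNA of the same line, called input, in the Cy5 channel. A level below is log2(cDNA/input) centred on the median of all probes of that array, so 0 is the level of a typical probe of the chromosome. The cDNA keeps no strand, and each line is 1 cell line, so a difference between lines cannot be told apart from a difference between genotypes.

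Cdc42ep3 encodes an effector that binds the active form of Cdc42, a small GTPase, and helps to arrange the actin and septin cytoskeleton. Cyp1b1 encodes a cytochrome P450 of the endoplasmic reticulum that oxidises polycyclic aromatic hydrocarbons and steroids. Its transcription is known to respond to the aryl hydrocarbon receptor (Ah receptor), which with its partner Arnt binds the core sequence GCGTG. Fam82a1, named Rmdn2 in RefSeq, belongs to a family of regulators of microtubule dynamics and lies between these genes.

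The files name no genome build for the probe positions, and these do not match the NCBIM37 reference. Probes were placed on NCBIM37 by matching the genomic DNA signal to the signal predicted from base composition, with no use of the cDNA signal. Of the 18 blocks of 25 kb in the stretch, 14 were placed on their own, and the 581 probes of the others were placed between them. Among these are all probes of exon 1 of Cdc42ep3 with the start of its intron, of Gm17315, of exons 1 and 2 of Fam82a1 and of 4921513D11Rik, so their values are less surely placed. The shift was 1849601 bp at Cdc42ep3 and 1853633 bp at Cyp1b1. Over the chromosome, exon probes lay above intron probes in 269 to 299 of 351 placed genes, depending on the array. By this placing Cdc42ep3 lies at chr17:79733365-79754431 on the minus strand with 2 exons. Gm17315, a long intergenic non-coding RNA gene on the plus strand, lies at chr17:79754039-79757362 and shares 393 bp with the start of Cdc42ep3. A gap of 256.877 kb without an annotated gene follows. Fam82a1 lies at chr17:80014240-80081492 on the plus strand with 11 exons and contains 4921513D11Rik, at chr17:80026017-80028021 on the same strand. Cyp1b1 lies 24.741 kb beyond the Fam82a1 end, at chr17:80106234-80114401 on the minus strand, with 3 exons. Gene coordinates are NCBIM37 throughout, whereas window positions are those of the files.

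The promoters of Cdc42ep3, Fam82a1 and Cyp1b1 are shown first, because their exons were higher in MEFB and the motifs in them can be set beside the levels. They are RefSeq sequences of build GRCm38.p6, 250 bases before to 50 after the gene start, written along the gene's strand. Cdc42ep3 is at chr17:79355042-79355341 on the minus strand, Fam82a1 (the first of its 2 promoters in the table) at chr17:79614967-79615266 on the plus strand, and Cyp1b1 at chr17:79715012-79715311 on the minus strand. Capitals mark GCGTG and GGGCGG on either strand, so CACGC and CCGCCC are marked too.
Cdc42ep3: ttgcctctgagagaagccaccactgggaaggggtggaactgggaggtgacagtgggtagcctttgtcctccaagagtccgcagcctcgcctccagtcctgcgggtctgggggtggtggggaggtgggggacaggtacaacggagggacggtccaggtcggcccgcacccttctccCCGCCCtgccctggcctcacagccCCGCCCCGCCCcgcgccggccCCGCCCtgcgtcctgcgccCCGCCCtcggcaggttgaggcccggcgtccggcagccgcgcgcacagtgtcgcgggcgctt
Fam82a1: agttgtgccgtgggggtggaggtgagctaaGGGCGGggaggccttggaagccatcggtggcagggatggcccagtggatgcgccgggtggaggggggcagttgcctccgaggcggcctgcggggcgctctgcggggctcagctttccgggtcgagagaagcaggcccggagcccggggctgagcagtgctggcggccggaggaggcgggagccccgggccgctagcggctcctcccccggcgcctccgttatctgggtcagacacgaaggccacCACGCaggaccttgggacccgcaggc
Cyp1b1: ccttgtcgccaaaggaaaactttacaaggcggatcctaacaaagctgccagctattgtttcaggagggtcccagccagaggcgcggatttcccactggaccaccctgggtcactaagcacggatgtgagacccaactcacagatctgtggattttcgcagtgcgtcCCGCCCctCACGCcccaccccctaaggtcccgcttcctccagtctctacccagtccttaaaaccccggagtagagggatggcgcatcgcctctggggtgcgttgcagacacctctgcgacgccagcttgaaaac
The search covered the Ah receptor core GCGTG, the GC box GGGCGG, the TATA box TATAAA, the CAAT box CCAAT and the AP-1 site TGANTCA, on both strands, and no motif contains another. Positions give the leftmost base of a match, count from 0 at the first base of the gene and are negative before it. GCGTG was found once in the Cyp1b1 promoter, at -76, and once in that of Fam82a1, at 24, and was not in that of Cdc42ep3. It occurs in 32.4% of the 32851 RefSeq promoters of this length. GGGCGG was found 5 times in the Cdc42ep3 promoter, at -75, -51, -46, -30 and -11, of which those at -51 and -46 share a base. The Cyp1b1 promoter held it at -84 and the Fam82a1 promoter at -220, and 35.7% of all promoters hold it. None of the 3 sequences held the TATA box, which is in 13.6% of all promoters, the CAAT box, which is in 37.4%, or the AP-1 site, which is in 7.81%. Promoters not printed held these motifs too. That of Atl2, a gene beyond the stretch with an exon difference of 0.59, held GCGTG at -42 and -32. It held GGGCGG at -201, -71, -7 and 15. The Gm17315 promoter held GCGTG at -166 and no GGGCGG, and the second Fam82a1 promoter held neither. A match is a run of letters and not a shown binding site.

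MEFB was higher around Cdc42ep3 and Cyp1b1, near the 2 ends of the stretch, and not across the whole of it. A window is called raised here when its MEFB level was at least 1 (log2) above each of the 4 MEFF arrays. Of the 86 windows, 8 were raised, against 0.351% of all windows of the array. The count was 4 after quantile normalization between arrays. It was 16 of 184 with windows of 2 kb and 3 of 45 with windows of 10 kb, so it moves with the number of windows. The share of the whole array under these settings is not given here. They formed a run of 5 windows over 25 kb at positions 77880000 to 77904999 and a run of 3 windows over 15 kb at positions 78245000 to 78259999. The first run tied for the longest of the 30 runs of raised windows on the array, whose median length was 5 kb. When the array was cut into 197 consecutive tiles of 450 kb, the tile of this stretch held the most raised windows, and 174 tiles held none. Since the rule used the contrast, these counts describe the choice.

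**Figure D1:**
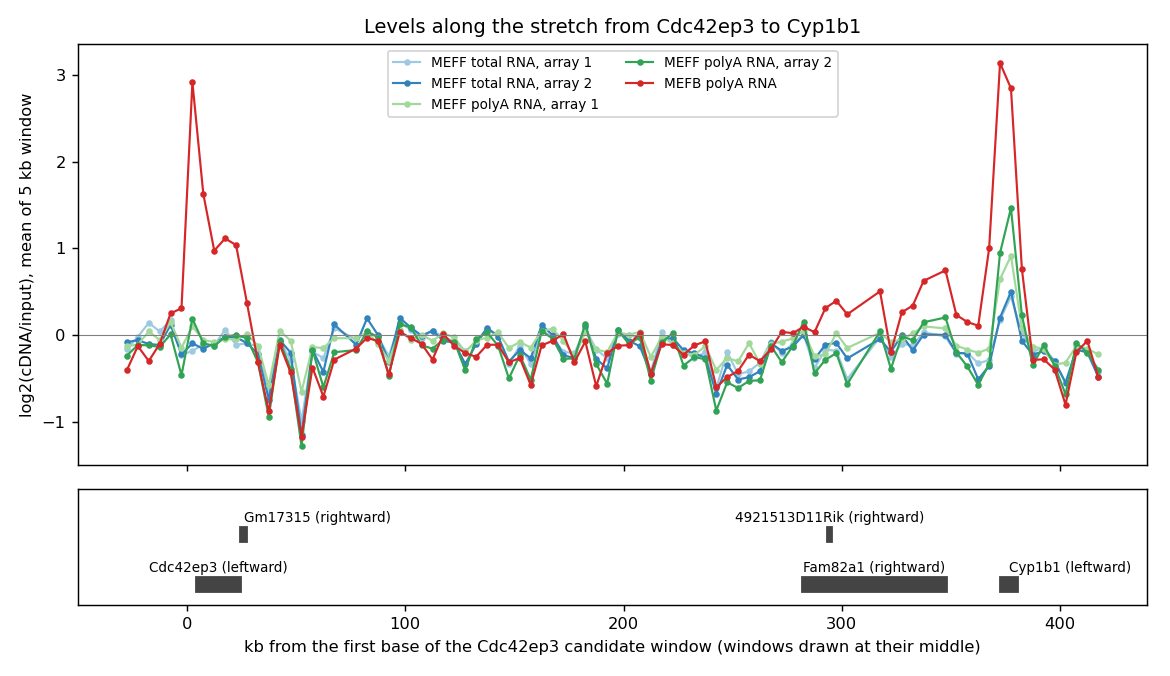
Mean log2(cDNA/input) of each 5 kb window along the stretch (vertical axis) against kb from the first base of the Cdc42ep3 candidate window (horizontal axis), 1 line per array, with the placed genes below. The MEFB line stands apart over Cdc42ep3 (up to 2.92) and Cyp1b1 (up to 3.14), lies slightly above the others over most of Fam82a1 and differs from the MEFF polyA mean by -0.34 to 0.23 in the gap.

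The window at 77880000 read -0.18 and -0.10 in the MEFF total RNA arrays, 0.10 and 0.19 in the MEFF polyA arrays and 2.92 in MEFB. The 4 MEFF arrays lay near the chromosome's median and MEFB far above them. The difference of 2.77 between MEFB and the mean of MEFF polyA was the largest of the 15383 windows. The window before it, at 77875000, read -0.23, -0.22, -0.15 and -0.46 in the MEFF arrays in the same order and 0.31 in MEFB. The window after it, at 77885000, read -0.11, -0.16, -0.06 and -0.09 in MEFF and 1.63 in MEFB. The difference was 0.61 in the window at 77875000 and 1.70 in that at 77885000. The placed 3' end of Cdc42ep3 is at position 77883763, so most of the window at 77880000 lies beyond the gene. In the whole run of 5 windows the mean MEFB level was 1.53 and the means of the MEFF arrays ranged from -0.09 to -0.01.

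Split by annotation, exon 2 of Cdc42ep3, which holds the end of the transcript, stood out most. Its 12 probes averaged 0.01 and 0.02 with total RNA of MEFF, 1.08 and 1.55 with its polyA RNA and 5.40 in MEFB. The groups did not overlap, with MEFF total RNA lowest, MEFF polyA RNA between and MEFB highest. The share of placed genes with this order was not counted. Over 351 placed genes, exons lay above introns by a median of 0.34 on both MEFF total RNA arrays. On the MEFF polyA arrays the median was 0.84 and 1.29, so exons in general stood further above introns with polyA RNA. All 12 probes of Cdc42ep3 exon 2 were higher in MEFB than in each MEFF array. Of the single probes of the chromosome 27.9% were, as were 305 of the 1354 probes in the gap described below, or 22.5%. The MEFF polyA mean was 1.31 ± 0.33 (SD, n = 2), which leaves a difference of 4.09, or 17.0-fold on the ratio scale. In deposited intensity, the median cDNA signal of these probes was 3146 and 3613 with total RNA of MEFF, 3398 and 2068 with its polyA RNA and 42306 in MEFB. In MEFB 1 of the probes was at the scanner limit, so its value there is a lower bound.

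The single intron of Cdc42ep3 was also higher in MEFB. Its 129 probes averaged -0.08, -0.09, -0.09 and -0.12 in the MEFF arrays and 1.11 in MEFB, and 105 of them were above each MEFF array. In MEFF the intron was near the chromosome's median on every array, and MEFB was above all of them. The difference of 1.21 was the largest of the 398 placed protein-coding genes with intron values, of which 0.503% had introns raised as defined above. Exon 1, with only 4 probes, averaged -0.04, 0.07, -0.03 and 0.24 in MEFF and 1.14 in MEFB, a difference of 1.03.

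The signal in MEFB went on past the annotated 3' end of Cdc42ep3. Over the first 5 kb beyond it, 38 probes averaged -0.32, -0.21, -0.21 and -0.43 in MEFF and 1.76 in MEFB, and 35 of them were above each MEFF array. In steps of 1 kb the difference was between 1.99 and 2.74 over the first 4 kb, 1.04 between 4 and 5 kb and 0.52 between 5 and 6 kb. It was 0.31 between 6 and 7 kb, so the excess faded over a few kb without a sharp edge.

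On the other side, Gm17315 was higher in MEFB by less. The 25 probes of Gm17315 outside Cdc42ep3 averaged -0.11, -0.10, -0.04 and 0.00 in MEFF and 0.50 in MEFB, a difference of 0.52, and 18 of them were above each MEFF array. Because the cDNA keeps no strand, transcripts of Gm17315 and any RNA from upstream of Cdc42ep3 were read together.

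**Figure D2:**
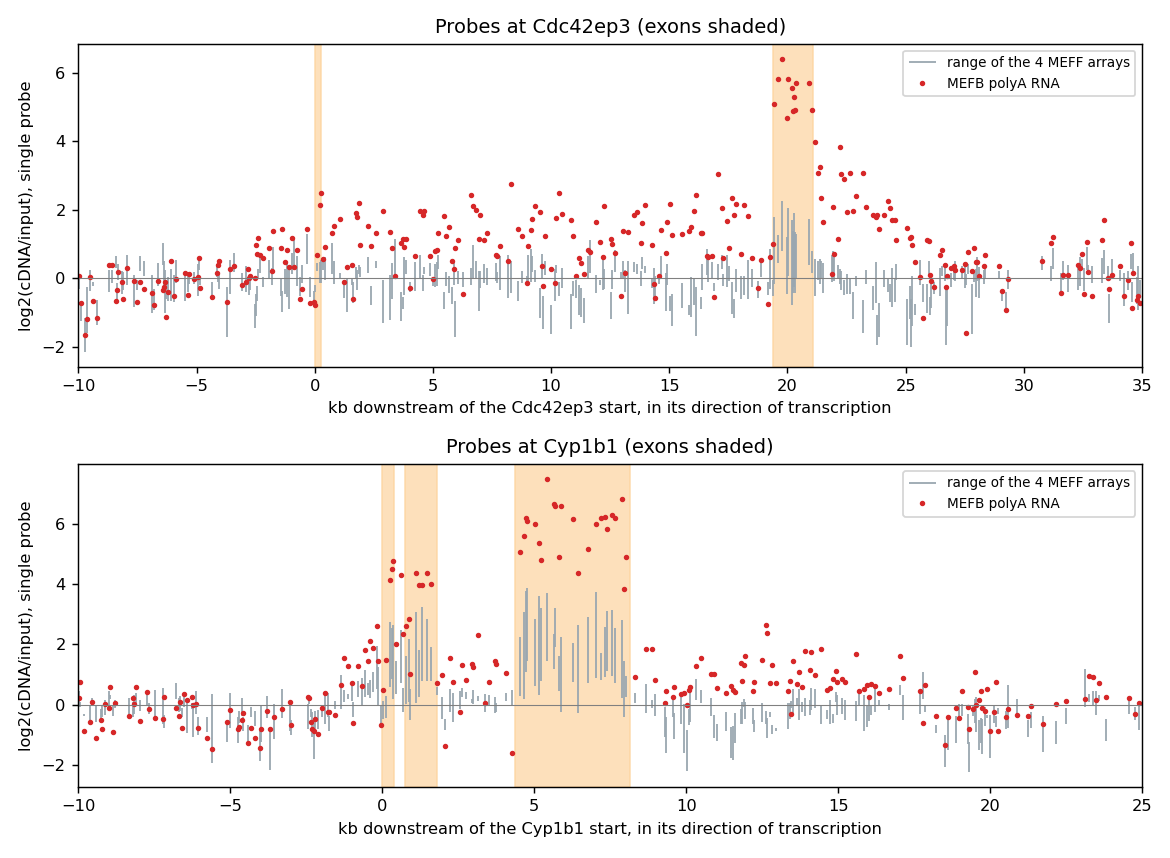
Single probes at Cdc42ep3 (upper panel) and Cyp1b1 (lower panel), with log2(cDNA/input) on the vertical axis and kb downstream of the gene start on the horizontal axis. Red points are MEFB, grey bars span the lowest to the highest of the 4 MEFF arrays, and exons are shaded. All 12 probes of Cdc42ep3 exon 2 and all 24 of Cyp1b1 exon 3 lie above the MEFF bars, and many intron and 3' flanking probes do too.

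The gap between Gm17315 and Fam82a1 showed no such difference. None of its 49 windows was raised, and the MEFB level lay between -1.17 and 0.04. The MEFF arrays spanned -1.28 to 0.20 over the same windows. MEFB was above each MEFF array in 6 windows, or 12.2%, against 30.9% of all windows of the array, and below each in 22, against 27.4% of all windows for the array. The differences from MEFF polyA ran from -0.34 to 0.23, with a median of -0.07, against 0.0073 over the array. The 1354 probes of the gap averaged -0.15, -0.17, -0.11 and -0.25 in MEFF and -0.23 in MEFB, so MEFB lay within the MEFF range.

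In pieces of 25 kb from the Gm17315 end, the difference in the gap was -0.10, -0.24, -0.04, -0.07, -0.08, -0.05, -0.10, -0.05, 0.04 and 0.08. The last short piece before the Fam82a1 start reached 0.11, with 34 probes. MEFB was below each MEFF array in 5 of the 11 pieces and above each in 1, the last. The 3 windows of the stretch with the lowest differences were at 78065000 (-0.34), 77940000 (-0.34) and 78280000 (-0.30), of which the first and the second lie in the gap and the last beyond Cyp1b1.

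Over Fam82a1 MEFB was higher by a smaller amount. None of the 11 windows with values over the gene was raised, but MEFB lay above each MEFF array in 9 of them, against 30.9% of all windows. The median difference was 0.47, within a range from -0.0056 to 0.61. It was 0.31 both with 2 kb windows and in the cDNA channel alone, and 0.74 after normexp background correction. The exons carried more of it than the introns. The 20 exon probes averaged 0.41 and 0.32 with total RNA of MEFF, 0.74 and 1.25 with its polyA RNA and 2.57 in MEFB. As also at the exons of Atl2 beyond the stretch, the groups did not overlap and ranked as at Cdc42ep3 exon 2. The difference of 1.58 was 2.98-fold on the ratio scale and ranked 13 among 414 placed protein-coding genes with exon values, 4.35% of which had exons raised by at least 1 above each MEFF array.

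By exon, the Fam82a1 difference was 1.43 in exon 2, where all 6 probes were above each MEFF array, and 2.01 in exon 11, the last, with 3 probes. Exons 4, 7 and 10, with 2 probes each, differed by 2.195, 1.02 and 1.77. Exons 5, 6 and 9, with 1 probe each, differed by 1.63, 2.30 and 2.66, the last being the largest of the gene. Exons 1 and 3, also with 1 probe each, differed by 0.04 and 0.32, and exon 8 held no probe. The 263 intron probes averaged -0.20, -0.14, -0.10 and -0.24 in MEFF and 0.10 in MEFB. That difference of 0.27 ranked 71 among 398 genes. MEFB introns were above each MEFF array by any amount in 33.7% of those genes, a share that does not speak to the size of the difference.

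The small gene 4921513D11Rik inside Fam82a1, which the annotation lists as protein-coding, averaged -0.13, -0.21, -0.14 and -0.34 in MEFF over 13 exon probes and 0.71 in MEFB. The MEFF arrays were near or below the chromosome's median and MEFB was above it. The difference of 0.95 lies above that of the Fam82a1 introns around it, and 11 of the probes were above each MEFF array. Both genes lie on the same strand, and the array cannot assign the signal to one of them.

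Between Fam82a1 and Cyp1b1 the MEFB level stayed above that of MEFF on average, though not at every step. In the interval up to 5 kb from the Cyp1b1 3' end, 116 probes averaged -0.22, -0.28, -0.13 and -0.29 in MEFF and 0.34 in MEFB, a difference of 0.55. All 4 windows of this interval were above each MEFF array, against 30.9% of all windows. The last of them, at 78245000, read -0.29, -0.36, -0.16 and -0.33 in MEFF and 1.00 in MEFB and opens the second run. The 34 probes within 5 kb of the 3' end averaged -0.47, -0.46, -0.26 and -0.52 in MEFF and 0.93 in MEFB. In steps of 1 kb the difference lay between 0.75 and 1.95 over the first 9 kb beyond Cyp1b1, with its highest value between 4 and 5 kb. It was 0.0055 between 9 and 10 kb, where MEFB lay within the MEFF range over 4 probes. In the steps ending at 11 and 12 kb it was 0.38 and 0.64. Over the first 4 kb the difference was lower than at Cdc42ep3, and from 4 to 7 kb it was higher than in the steps given there.

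The Cyp1b1 candidate window at 78250000 read 0.18 and 0.20 with total RNA of MEFF, 0.65 and 0.95 with its polyA RNA and 3.14 in MEFB. The groups did not overlap, and the share of all windows with such an order was not counted. Unlike at Cdc42ep3, each MEFF array was above the chromosome's median. Its difference of 2.34 ranked 3 among the 15383 windows. It was 1.33 with the median of the probes. The 2 kb window at that position differed by 0.99, but it lies wholly beyond the placed 3' end of Cyp1b1 and holds none of its exons. The next window, at 78255000, read 0.45 and 0.50, then 0.91 and 1.46, and 2.85 in MEFB. The window at 78260000 read 0.02, -0.07, 0.08 and 0.23 in MEFF and 0.76 in MEFB. The run of 3 windows had a mean MEFB level of 2.33 and a mean difference of 1.75.

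All 3 exons of Cyp1b1 were higher in MEFB. The 24 probes of exon 3, which holds the end of the transcript, averaged 0.94 and 0.88 with total RNA of MEFF, 1.70 and 2.72 with its polyA RNA and 5.80 in MEFB. All 24 were above each MEFF array, the MEFF polyA mean was 2.21 ± 0.72 (SD, n = 2), and the difference was 3.59. The median cDNA intensity of these probes was 5425, 5901, 5875 and 5315 in the MEFF arrays and 41738 in MEFB, again with 1 probe at the scanner limit. Exon 2 (8 probes) differed by 1.63, from 1.01 and 2.03 in MEFF polyA RNA to 3.15 in MEFB. Exon 1 (4 probes) differed by 2.198, from 0.98 and 2.06 to 3.72.

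The introns of Cyp1b1, with 19 probes, averaged 0.10, 0.06, 0.20 and 0.32 in MEFF and 1.08 in MEFB. Their difference of 0.82 ranked 5 among 398 genes. Within 1 kb before the annotated start, 9 probes averaged 0.51, 0.30, 0.44 and 0.79 in MEFF and 1.40 in MEFB. Here too each MEFF array was above the median. From 1 to 5 kb before the start the 31 probes averaged -0.28, -0.36, -0.27 and -0.50 in MEFF and -0.30 in MEFB, so the excess ended within that distance. Over the remaining 228 probes of the stretch the difference was -0.09, and none of the 7 windows there was raised.

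**Figure D3:**
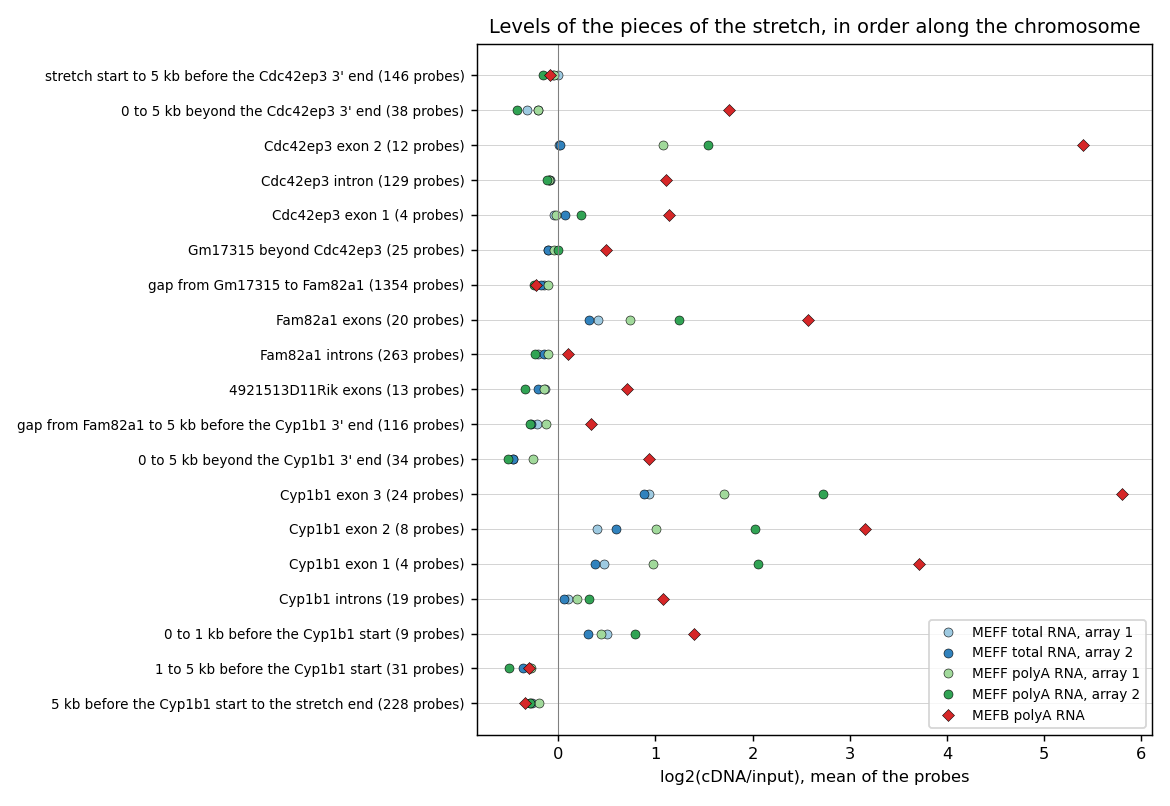
Mean log2(cDNA/input) of the probes of each piece of the stretch (horizontal axis), with pieces in chromosome order from top to bottom and 1 point per array. MEFB (red diamonds) lies to the right of every MEFF array in each piece that belongs to or flanks a gene, by up to 3.85 in Cdc42ep3 exon 2, except 1 to 5 kb before the Cyp1b1 start. It lies among them in the gap and at the outer end beside Cdc42ep3, and below each of them at the outer end beside Cyp1b1.

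At the borders MEFB was not raised. The first window inside, at 77850000, had a difference of -0.22 and the last outside before it, at 77845000, one of -0.23. At the other border the last window inside, at 78295000, had -0.18 and the next outside, at 78300000, had 0.15. Of the nearest protein-coding genes, Qpct, which encodes glutaminyl cyclase, lies at chr17:79451246-79489583, where probes were placed between blocks and less surely. Its 16 exon probes averaged -0.19, -0.04, -0.16 and -0.20 in MEFF and 0.71 in MEFB, a difference of 0.89 that ranked 36 among 414 genes. Atl2, which encodes an atlastin that shapes the endoplasmic reticulum, lies at chr17:80247732-80295463. Its 26 exon probes averaged 1.17 and 1.03 with total RNA of MEFF, 1.93 and 2.65 with its polyA RNA and 2.88 in MEFB, a difference of 0.59. Its 222 intron probes averaged 0.10, 0.05, 0.08 and 0.16 in MEFF and 0.68 in MEFB, and that difference of 0.56 ranked 17 among 398 genes, above the rank of the Fam82a1 introns. Neither neighbour had exons raised by 1 above each MEFF array.

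The excess lay in the cDNA channel. At Cdc42ep3 exon 2 the difference between MEFB and MEFF polyA, each channel centred on its array median, was 4.04 in the cDNA and -0.10 in the input. At Cyp1b1 exon 3 it was 3.06 in the cDNA and -0.57 in the input. The input difference at the Cyp1b1 window was -0.48, at the 2.5th percentile of all windows, so part of the log ratio there comes from the lower input of the MEFB array. The cDNA difference of that window alone was 1.91. In the other parts of Cyp1b1 the input difference had the opposite sign, with 0.34 at exon 2, 0.14 at exon 1 and 0.15 at the introns. Their cDNA differences of 2.03, 2.39 and 1.015 were thus larger than those of the ratio. Over the gap the median difference was -0.06 in the cDNA and -0.04 in the input.

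**Figure D4:**
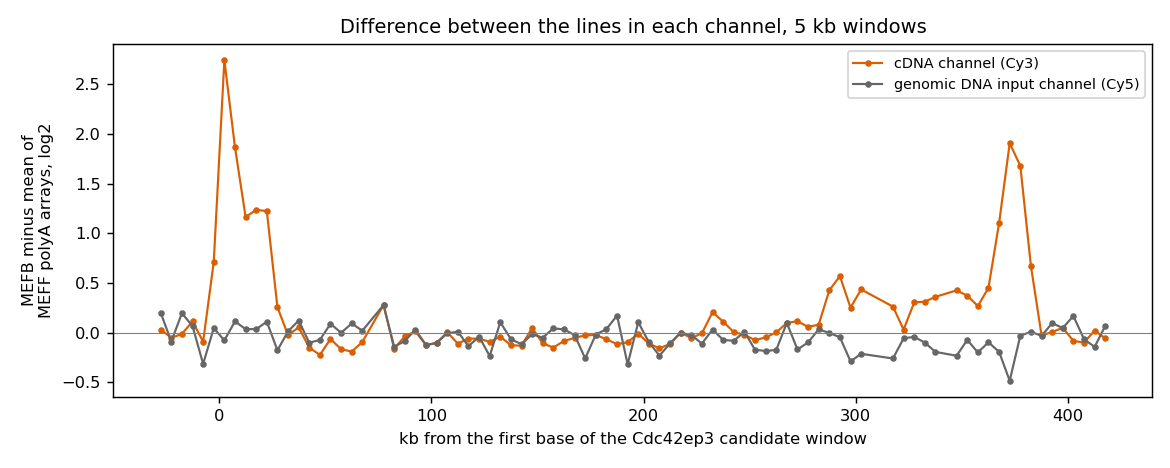
Difference between MEFB and the mean of the 2 MEFF polyA arrays in each channel (vertical axis, log2) against kb from the first base of the Cdc42ep3 candidate window (horizontal axis), 1 point per 5 kb window. The cDNA line reaches its peaks at Cdc42ep3 and Cyp1b1, and the input line stays between -0.48 and 0.28.

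The arrays themselves differed in range. The 99th percentile of the cDNA signal was 5.33 to 5.42 times the median with total RNA of MEFF, 9.17 and 22.4 times with its polyA RNA and 20.7 times in MEFB. The wider spread of the second MEFF polyA array and of MEFB moves with the size of high levels, and its part in the differences was not tested. Arrays of whole cultures read RNA per sample, so more cells of a type and more RNA per cell cannot be told apart.

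Total against polyA RNA of MEFF is the comparison the rule did not use, although it shares the MEFF polyA arrays with the one above. By limma with Benjamini-Hochberg adjustment over all windows, 0 of the 86 windows were called at an adjusted p under 0.05, and 0% of the array. At an unadjusted p under 0.05, 3 windows were lower in total RNA, against 6.49% of the array in that direction. They were the windows at Cyp1b1, with differences of -0.61 ± 0.12 (SE, adjusted p = 0.57 by limma) at 78250000 and -0.72 ± 0.19 (SE, adjusted p = 0.57 by limma) at 78255000, and the Cdc42ep3 window with -0.28 ± 0.08 (SE, adjusted p = 0.57 by limma). Each of the 3 was lower in both total RNA arrays than in both polyA arrays, which can follow from picking them by p on the same arrays. The share of all windows with such a separation was not counted. After normexp background correction the windows at 78250000 (-0.79, limma adjusted p = 0.045) and 78255000 (-0.89, limma adjusted p = 0.028) passed, beside 3.39% of the array. With normexp they were lost when either total RNA array was left out. The 3 windows with the highest level in MEFF total RNA were 78255000, 78250000 and, in the gap, 77975000 with 0.14 and 0.20. Outside Cyp1b1 the highest level of a window in any MEFF array was 0.20, over Fam82a1.

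Lists of other chromosome 17 genes place these values. Of 11 P450 genes only Cyp1b1 and Cyp39a1, an oxysterol hydroxylase, could be placed with at least 5 exon probes, and Cyp39a1 differed by 0.50 with MEFB inside the MEFF range. Of 5 genes tied to the Ah receptor 3 had values. Xdh, xanthine dehydrogenase, differed by -2.34 over 5 probes. Vegfa, a vascular growth factor, differed by -0.42, with MEFB (3.59) inside the MEFF range of 2.42 to 4.57. Over the 414 placed genes the median difference was 0.04, and 6.04% differed by at least 1 and 3.14% by at most -1.

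The list of 4 genes expressed in fibroblasts was chosen with earlier results of these data known, so its count is a description only. Of these genes 3 had exons raised in MEFB, against 4.35% of placed genes. The raised genes were Thbs2 with a difference of 3.13, Emilin2 with 1.59 and Crim1 with 1.54, and Ltbp1 differed by -0.22. Of 7 genes of other cell types only Mog, of oligodendrocytes, could be read, and it lay between -0.12 and 0.22 on all arrays. The defining collagen and vimentin genes of fibroblasts are not on this chromosome. The part of these markers in the differences of the stretch was not tested.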

How the data were processed

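The 5 arrays were 2-colour NimbleGen tiling arrays of chromosome 17. Deposited was 1 raw intensity per probe and channel, and the file headers name NimbleScan 2.2.34; the labels give Cy3 as cDNA and Cy5 as input, with no dye swap. No background subtraction or normalization is recorded in the headers. From the deposited intensity, log2(cDNA/input) was computed, centred on each array's median over all 388000 probes, and averaged over 5 kb windows with at least 8 probes. Probes at the scanner limit were kept. The test of MEFF total against polyA RNA was limma 3.58.1 under R 4.3.3 (lmFit and eBayes, all 5 arrays, 3 group means, 2 residual degrees of freedom, Benjamini-Hochberg over 15383 windows). No label says whether replicate arrays stem from separate cultures. The p-values thus cover only the spread between arrays, which may be technical, and the number of arrays limits the precision.

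Placing used blocks of 25 kb between anchors of 100 kb, the base composition of 50 bases per probe, and gene models of gencode vM1. A probe counted as exonic with at least 25 bases in an exon; genes needed 5 exon and 10 intron probes. It covered 65.8% of the probes of chromosome 17. The placing was tested on simulated data with the search held near the true shift. The window fit was tested on simulated data with changed MEFB levels only, which does not cover total against polyA RNA.

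Named were every annotated gene of the stretch, the nearest protein-coding gene on each side, the candidate windows and their neighbours, runs of raised windows (joined over 1 window), the 3 windows highest in MEFF total RNA and the 3 lowest differences, and every member that could be placed of the lists reported; another list is not reported here. The stretch, the lists and the motifs were chosen with earlier results of these data known. Alternatives were 2 kb and 10 kb windows, probe medians, loess (span 0.3), quantile normalization, normexp (offset 50), the cDNA channel alone, removal of dim or saturated probes, a fit of the compared groups alone, each replicate left out, thresholds of 0.5 and 2, and, for the placing, the shift of the neighbouring block. Normexp together with a left-out replicate, and the same alternatives for the gap and for Fam82a1, were added after seeing the data.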

Additional observations from a re-analysis of the deposited data

How the results depend on the processing

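The 8 raised windows of 86 became 16 of 184 with windows of 2 kb and 3 of 45 with windows of 10 kb. The count was 7 with the median of probes, 4 after quantile normalization and 10 after normexp. It was 10 at a threshold of 0.5 and 2 at a threshold of 2, and stayed at 8 with each replicate left out. After normexp 1 raised window lay before Cdc42ep3 and 2 between Fam82a1 and Cyp1b1, against 0 and 1 under the main setting. In the gap the count of raised windows was 0 under each alternative run. The difference at the Cdc42ep3 window (2.77) was 2.27 with the median of probes, 2.38 with 2 kb and 2.25 with 10 kb windows, 2.23 after loess, 2.14 after quantile normalization and 3.63 after normexp, and 2.73 to 2.81 with a replicate left out. That at the Cyp1b1 window (2.34) was 1.33 with the median, 0.99 with 2 kb and 1.97 with 10 kb windows, 1.94 after loess, 1.87 after quantile normalization, 2.77 after normexp, 1.91 in the cDNA channel alone, and 2.19 to 2.49 with a replicate left out. The 2 kb windows at these positions lie wholly beyond the placed 3' ends of Cdc42ep3 and Cyp1b1, so they read flanking probes and not the genes. The median over the other windows of the stretch was -0.06 to 0.06 with a replicate left out. The Fam82a1 median (0.47) was 0.35 with the median of probes, 0.31 with 2 kb windows, 0.38 after loess, 0.35 after quantile normalization, 0.74 after normexp, 0.31 in the cDNA channel alone and 0.37 to 0.47 with a polyA replicate left out. The gap median was -0.12 to -0.01 with a polyA replicate left out.

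For total against polyA RNA, 2 windows of the stretch were called after quantile normalization and 2 after normexp, against 0 otherwise with all replicates in. With a replicate left out the count was 0 to 16. It was 16 without the first and 8 without the second MEFF polyA array, when 29.2% and 20.8% of the array were called and the spread came from the total RNA arrays alone, which the remaining polyA array is taken to share. With normexp it was 0 without either total RNA array, 2 without the first and 8 without the second polyA array. Counts of windows called between MEFB and MEFF, with their alternatives, were planned and are not given, since the stretch was chosen by that contrast. The cause of these shifts was not tested beyond this. Exon and intron differences kept their direction when the shift of the neighbouring block was used. This is a weak check, because a block could be accepted for matching the shift of a neighbour. Probes placed between blocks kept their shift under this alternative, so their placing was not tested.

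No paired analysis was possible because the labels give no replicate numbers that pair arrays across groups, and MEFB has 1 array. The single MEFB array gives no spread of its own, and dim probes carry unsubtracted background, which makes the folds of weak probes smaller.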
